A study of Mus musculus with 3 samples.

Results

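Myoid cells, cells of the cerebellum that carried RNA of striated muscle genes, were described across all genes in Drop-seq libraries of 3 mice at postnatal day 7 (P7). A kept cell was a barcode with at least 500 unique molecular identifiers (UMIs, each standing for 1 captured RNA molecule) of which at most 10% came from mitochondrial genes. The members were chosen by their own counts of 5 muscle genes, namely Actc1 (cardiac alpha actin), Mylpf (fast myosin light chain), Myh3 (embryonic myosin heavy chain), Ttn (titin) and Tpm2 (beta tropomyosin). A kept cell was taken as myoid when the summed UMIs of these 5 rule genes reached 5 with at least 2 of the genes seen. The rule selected 60 of 2408 kept cells, 24 of 934 in mouse 1, 15 of 556 in mouse 2 and 21 of 918 in mouse 3. Their share was 2.57%, 2.70% and 2.29% of the kept cells of a mouse, or 2.52% ± 0.21 (mean ± SD, n = 3 mice). The other 2348 kept cells are called the remaining cells.

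All 3 mice had the genotype Math1-Cre/Eed fl/fl (Eed cKO), on a C57BL/6 background and without further treatment. The Cre transgene is driven by the promoter of Math1, also called Atoh1, a transcription factor gene of the cerebellar granule neuron progenitors (CGNPs). Deletion of Eed was thus aimed at the granule lineage, and other cell types of the tissue were to keep the gene. Part of the cerebellum of each mouse was dissociated with papain and made into 1 library, and the cells in which Cre had acted were not identified. Only this genotype was analysed here, so every comparison is between cell groups within the same mice, and the effect of the deletion itself cannot be told apart from the cell type.

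EED is a core subunit of Polycomb repressive complex 2, which places trimethylation on lysine 27 of histone H3 and keeps genes of other lineages silent. Skeletal muscle cells normally arise outside the brain, under transcription factors of the MyoD family such as myogenin. As they differentiate they leave the cell cycle, fuse, build sarcomeres and exchange widely expressed metabolic enzymes for muscle isoforms, with creatine kinase and glycolysis supplying ATP for contraction. In the cerebellum such cells are ectopic, and their place in the tissue was not measured here.

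Few cells lay near the threshold. The member with the fewest rule UMIs had 7, 7 and 8 in mice 1, 2 and 3, the median member had 23, 17 and 46, and the highest had 171, 187 and 349. Just outside the rule, 2, 2 and 1 remaining cells had 4 rule UMIs, and 825, 501 and 769 had none. A pair of cells with 5 or more UMIs failed only because a single rule gene was seen, 1 in mouse 1 with 5 UMIs and 1 in mouse 2 with 17 UMIs of Actc1. The rule genes made up 0.282% to 6.63% of a member's UMIs. Some remaining cells also carried Myog (myogenin), which the rule did not use. A Myog UMI was seen in 55 of the 2348 remaining cells, at least 3 of them in 18 cells, and 7 of these 18 had no rule UMI. Leaving all 55 out, an alternative chosen after seeing the data, gave 456 genes higher and 701 lower in the comparison below, beside 465 and 695 with them.

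**Figure D1:**
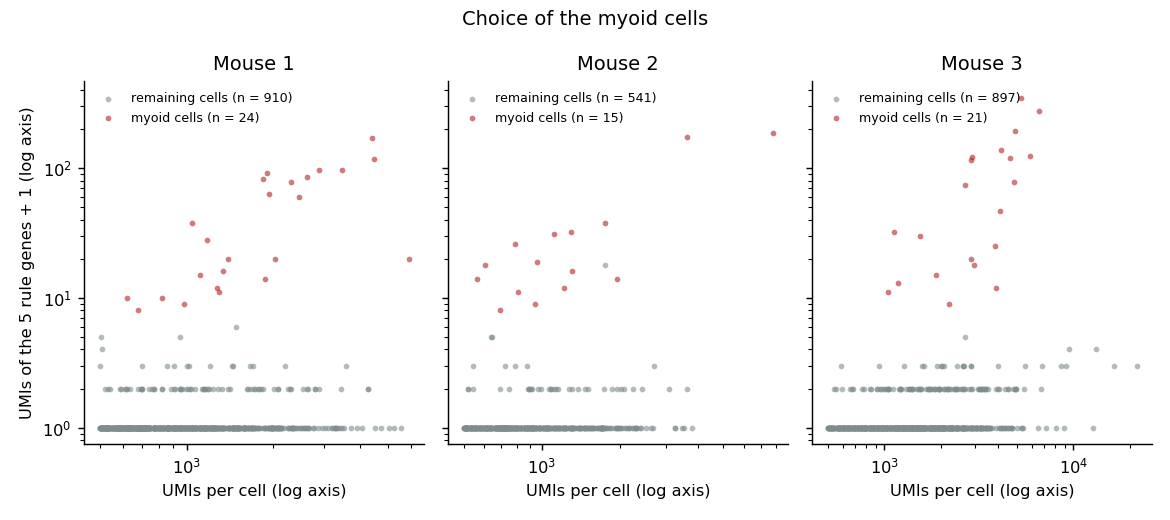
Summed UMIs of the 5 rule genes plus 1 against the UMIs of each kept cell, 1 panel per mouse, both axes logarithmic, myoid cells in red and remaining cells in grey. The members sit from 7 rule UMIs upward, and most remaining cells had 0, with 1 remaining cell of mouse 2 at 17 UMIs of a single rule gene.

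Members held more UMIs than the cells they are compared with. The median member had 1848.5, 1111 and 2995 UMIs in mice 1, 2 and 3 against 918.5, 859 and 1405 in the remaining cells, and 1114, 697 and 1705 genes against 682.5, 627 and 985. Mitochondrial UMIs made up a median of 2.18%, 2.12% and 1.38% in members and 1.87%, 1.89% and 1.35% in remaining cells. In all, 146487 UMIs of members and 3155764 of remaining cells were compared. A gene with no UMI in the members had a level of at most 20.5 CPM (the counts-per-million unit, UMIs of a gene over all UMIs of the cell group), the level that 3 counts over all members would give, and this limit is used below for every fold against such a gene. All intervals and limits cover counting error only.

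The UMIs of all members of a mouse were added up, and likewise those of its remaining cells. The 3 member sums were tested against the 3 others with edgeR's quasi-likelihood test and Benjamini-Hochberg adjustment over the 6065 genes that passed the filter on low counts. Of these, 465 (7.67%) were higher and 695 (11.5%) lower in myoid cells at an adjusted p under 0.05, and the median log2 fold change over all genes tested was -0.18. With every cell thinned to 500 UMIs, 3369 genes were tested and 129 were higher and 316 lower. Counts of lists described below fell too, from 13 to 5 higher for the dystrophin and integrin list, from 6 to 3 higher for glycolysis and from 37 to 19 lower for the cell cycle. Under every alternative setting, a gene that missed the filter on low counts there was not tested and is counted as not passing. A gene without a UMI in members could pass the filter on low counts only through the remaining cells, where it was high, and so had to differ. The number of such genes is given below beside the counts of a list. Their p-values are a description. Levels are given in CPM per mouse. Fold changes carry a standard error (SE, n = 3 mice) derived from the test, the size of the log2 fold change over the square root of its F statistic. That statistic uses a spread moderated across genes. The cells were picked on muscle genes, so the higher levels of other muscle genes, the muscle isoforms of enzymes included, follow in part from the choice. Their p-values set the size of a difference against the spread between mice and are no independent evidence that the cells are muscle. Of 35 other sarcomere genes that passed the filter, 34 were past the threshold upward, and Tpm3, a widely expressed tropomyosin, was past it downward. The summed level of the sarcomere list was 47186, 48472 and 42578 CPM in members and 1119, 964 and 1016 CPM in remaining cells.

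Markers of other cell types that a cerebellar preparation holds were mostly lower in the members. The fibroblast list summed to 0, 0 and 42.0 CPM in myoid cells and 457, 669.9 and 678 CPM in remaining cells, and Dcn, Lum, Col1a1, Ogn, Slc6a13, Crabp2 and Aldh1a2 had no UMI in any member. Of the pericyte and smooth muscle list, Rgs5, Pdgfrb, Vtn, Cspg4, Kcnj8, Notch3, Tagln and Myh11 were at 0, while Acta2, smooth muscle actin and also an actin of immature striated muscle, was at 805, 629.5 and 547 CPM against 24.4, 20.0 and 8.86. Endothelial markers summed to 20.1 to 39.3 CPM with 8 of 10 genes at 0, and myeloid markers to 0 to 28.0 CPM with 8 of 10 at 0. Astrocyte markers summed to 40.2, 236 and 196 CPM against 1239.7, 704 and 2042, with Aqp4, Gja1 and Slc4a4 at 0. The GABAergic neuron list summed to 362, 197 and 154 CPM against 666, 619 and 2206, with Gad2, Ptf1a and Slc32a1 at 0 and 2 of 4 tested genes lower. The oligodendrocyte list was closest to the remaining cells in mouse 3, at 221, 315 and 477 CPM against 1237, 931 and 564, with Olig1 and Sox10 at 0 and 4 of 7 tested genes lower. The neural crest and Schwann list was at 342, 118 and 98.1 CPM against 705, 389 and 476. The heart muscle list went the other way, at 60.3, 157 and 126 CPM against 11.7, 5.45 and 18.3, with Tbx5 and Hand2 at 0 and none of its 5 genes abundant enough to be tested. Of the granule lineage list Atoh1 was at 0 and 9 of 9 tested genes were lower. The haemoglobin gene Hbb-bs, which red blood cells and RNA free in the suspension can both supply, stood at 261, 157 and 98.1 CPM in members and 808, 1933 and 536 CPM in remaining cells, and was seen in 27.1% of members and 20.9% of remaining cells (6.59% and 9.82% with every cell thinned to 500 UMIs, means of 3 mice). Eed, the gene targeted by the deletion, had 5 UMIs in members (40.2, 0 and 42.0 CPM) and 117 in remaining cells (43.9, 32.7 and 34.2 CPM), a depth at which a difference was not detectable. A 3′ tag of Eed need not lie in the deleted exons, so it does not check the deletion.

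The upstream sequences of 4 genes with higher levels in the members are shown because each carries the letters CAGCTG, an E-box of the kind that MyoD family proteins bind. They encode a glycolytic enzyme, a subunit of cytochrome c oxidase, a subunit of the acetylcholine receptor of muscle and a muscle protein kinase, in that order. Each is the run of 150 bases before the gene's start in RefSeq on GRCm38.p6, 5′ to 3′ on the gene's strand, with CAGCTG in capitals.
Pgam2 (chr11:5803797-5803946, minus strand): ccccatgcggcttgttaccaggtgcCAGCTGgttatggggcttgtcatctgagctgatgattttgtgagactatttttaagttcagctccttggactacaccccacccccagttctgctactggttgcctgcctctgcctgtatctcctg
Cox8b (chr7:140900447-140900596, minus strand): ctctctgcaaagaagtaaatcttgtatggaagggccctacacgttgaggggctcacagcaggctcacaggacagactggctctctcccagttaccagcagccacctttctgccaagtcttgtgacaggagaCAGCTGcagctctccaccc
Chrna1 (chr2:73580339-73580488, minus strand): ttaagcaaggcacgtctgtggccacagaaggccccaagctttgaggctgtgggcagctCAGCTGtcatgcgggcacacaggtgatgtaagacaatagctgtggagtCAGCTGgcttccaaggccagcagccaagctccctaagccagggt
Srpk3 (chrX:73774255-73774404, plus strand): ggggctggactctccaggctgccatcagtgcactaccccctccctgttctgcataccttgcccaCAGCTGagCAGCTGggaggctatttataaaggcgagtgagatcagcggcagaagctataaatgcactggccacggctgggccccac
The first base of the motif lies 125 bases before the start in Pgam2 and 19 in Cox8b, and the paired motifs lie at 92 and 44 bases in Chrna1 and 86 and 78 in Srpk3. CAGCTG reads the same on both strands, and 2756 of 32851 windows of this length (8.39%) hold it. The 4 genes were picked for holding it, so the match is a description and says nothing of binding in these cells.

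In metabolism, the muscle form of an enzyme took a large part of its pair in the members. Eno3, the muscle enolase (chromosome 11, 70657202 to 70662513, plus strand, GENCODE M21 on GRCm38), stood at 1428, 1062 and 1149 CPM in mice 1, 2 and 3 against 7.81, 1.82 and 8.23 CPM in the remaining cells (log2 fold change 7.50 ± 0.37, adjusted p = 3.73e-15). The widely expressed enolase Eno1 was also higher, at 1327, 944 and 1135 CPM against 475, 334 and 388 (log2 fold change 1.58 ± 0.26, adjusted p = 3.96e-05). Summed over the members of a mouse, Eno3 made up 51.8, 52.9 and 50.3% of the UMIs of the pair in the 3 mice against 1.41% ± 0.788 (SD, n = 3) in remaining cells. The members were not alike in this. When those of each mouse were split by their share of rule UMIs, as described below, the low-share cells held 51.8, 104 and 65.8 CPM of Eno3 and 881, 623 and 592 of Eno1, and the high-share cells 2300.4, 1648 and 1954 and 1610.2, 1141 and 1539. The muscle phosphoglycerate mutase Pgam2 was at 322, 433 and 336 CPM against 1.95, 1.82 and 1.27 (log2 fold change 7.66 ± 0.50, adjusted p = 1.12e-12), and held 95.9% ± 4.17 of its pair with Pgam1 against 7.48% ± 3.60, from 51 and 5 UMIs of Pgam2. In each pair the members of the 3 mice lay above all remaining cell sums.

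Glycolysis genes leaned upward, with 11 of the 13 tested at a log2 fold change above 0. Of 26 genes of the glycolysis and lactate list 13 were tested, 6 were higher and 2 lower in members, and their median log2 fold change was 1.19 beside -0.18 for all genes. Over all genes tested, 7.67% were higher and 11.5% lower. Aldoa, the aldolase of glycolysis in muscle and most tissues, was higher, at 1669, 1416 and 1639.8 CPM against 279, 239.6 and 258 (log2 fold change 2.66 ± 0.25, adjusted p = 2.8e-09). Pkm and Ldha, pyruvate kinase and the lactate dehydrogenase subunit typical of muscle, did not pass (log2 fold change 0.47, adjusted p = 0.283 and 0.77, adjusted p = 0.107). The lower genes were Ldhb, the other main subunit of lactate dehydrogenase, at 40.2, 157 and 126 CPM against 337, 312 and 374 (log2 fold change -1.67 ± 0.39, adjusted p = 0.00256), and the lactate transporter Slc16a1, with 3 UMIs in members and 332 in remaining cells (ratio 5.14, exact 95% interval 1.74 to 25.0, higher in remaining cells). The call of Slc16a1 ended without mouse 1 or mouse 3 (adjusted p = 0.0515 and 0.144), and without mouse 1 that of Ldhb did too (adjusted p = 0.0591). The glucose transporters Slc2a1, Slc2a3 and Slc2a4 and the hexokinase Hk1 had no UMI in any member. None of these genes passed the filter on low counts, so a difference from remaining cells was not tested. The list summed to 5773, 5351 and 6237 CPM in myoid cells and 2200.2, 1817 and 2389 CPM in remaining cells, without overlap. Of the glycogen list 2 of 5 genes tested were higher, 1 without mouse 1 and 0 with cells thinned to 500 UMIs.

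The creatine and adenylate genes, which buffer ATP, were mostly higher among those tested. Of 7 tested 6 were higher and none lower, with a median log2 fold change of 3.47. Ckm, the muscle creatine kinase, had 261, 393 and 505 CPM in members and 1.95, 0 and 0.633 CPM in remaining cells, 59 UMIs against 3 (ratio 424, exact 95% interval 138 to 2113). Ckb, the brain form, did not pass (log2 fold change 0.23, adjusted p = 0.698), with mouse 2 low at 236 CPM while mice 1 and 3 stood at 825 and 981 CPM. Ckm made up 24.1, 62.5 and 34.0% of the pair in the 3 mice, the widest spread among the pairs. Ak1, adenylate kinase, was higher, at 422, 433 and 505 CPM against 17.6, 21.8 and 22.8 (log2 fold change 4.51 ± 0.34, adjusted p = 2.68e-11), and Gamt, which makes creatine, stood at 442, 669 and 575 CPM against 42.9, 59.9 and 52.5 (log2 fold change 3.47 ± 0.30, adjusted p = 6.04e-10). Myoglobin (Mb) had 23 UMIs in members, 60.3, 315 and 168 CPM by mouse, and none in the 2348 remaining cells, at least 165-fold higher in members.

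Mitochondrial energy genes differed by less. Of 77 nuclear genes of oxidative phosphorylation (OXPHOS) tested, 16 were higher and none lower, with a median log2 fold change of 0.56, and the list summed to 49037, 49494 and 50566 CPM against 31704, 37271 and 33038. The count depended on the setting, with 5, 11 and 8 genes higher without mouse 1, 2 or 3, 26 with the mouse as a block and 3 with every cell thinned to 500 UMIs. Ndufc2 of complex I was higher, at 1488, 1377 and 1303 CPM against 509, 581 and 550.5 (log2 fold change 1.39 ± 0.24, adjusted p = 8.42e-05) and Uqcrb of complex III stood at 603, 1102 and 813 against 345, 405 and 353 (log2 fold change 1.19 ± 0.26, adjusted p = 0.00149), but 0.653 with adjusted p = 0.305 after thinning. Of 33 genes of the TCA cycle and fatty acid oxidation tested 9 were higher and none lower, with a median of 0.85. The 9 became 4, 6 and 3 without mouse 1, 2 or 3, and 1 with cells thinned to 500 UMIs. Acadl, which starts the oxidation of long fatty acids, was higher, at 282, 354 and 266 CPM against 74.2, 65.4 and 79.7 (log2 fold change 2.03 ± 0.33, adjusted p = 3.45e-05). Idh2, the mitochondrial isocitrate dehydrogenase, was higher, at 302, 197 and 406 against 143, 94.4 and 109 (log2 fold change 1.55 ± 0.33, adjusted p = 0.00112, and adjusted p = 0.0891 without mouse 3).

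Within cytochrome c oxidase, the muscle form was present in 2 of 3 subunit pairs. Cox6a2, the heart and muscle form of subunit 6A, was at 1871, 2007 and 1359 CPM in members against 8.79, 9.08 and 2.53 (log2 fold change 8.15 ± 0.38, adjusted p = 1.31e-15), and Cox6a1, the form of other tissues, at 784, 551 and 743 against 1229, 1164 and 1026 (log2 fold change -0.63 ± 0.26, adjusted p = 0.0907, and 0.0466 with the mouse as a block). Cox6a2 held 71.2% ± 6.93 of the pair in members and 0.577% ± 0.288 in remaining cells. Cox8b stood at 463, 157 and 350.4 CPM against 1.95, 0 and 3.16 (log2 fold change 7.24 ± 0.54, adjusted p = 2.08e-11) and held 23.6% ± 8.87 of its pair, while Cox8a was not lower (log2 fold change 0.60 ± 0.25, adjusted p = 0.0888, and 0.0487 with the block). The third muscle form, Cox7a1, had 1 UMI beside 142 of Cox7a2 in members, 0.433% ± 0.750 of the pair against 0.582% ± 0.519. The calcium pump of fast muscle, Atp2a1, had 35 UMIs in members and 0 in remaining cells (at least 251-fold higher), and held 67.7% ± 13.7 of its pair with Atp2a2, which did not pass (log2 fold change -0.23, adjusted p = 0.769). The ATP carrier Slc25a4, the form abundant in muscle, held 58.2% ± 7.07 of its pair with Slc25a5 in members and 64.7% ± 2.31 in remaining cells, ranges that overlap. Slc25a5 was past the threshold upward at 0.67, a call that ended without any 1 of the mice (adjusted p = 0.166, 0.224 and 0.311).

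**Figure D2:**
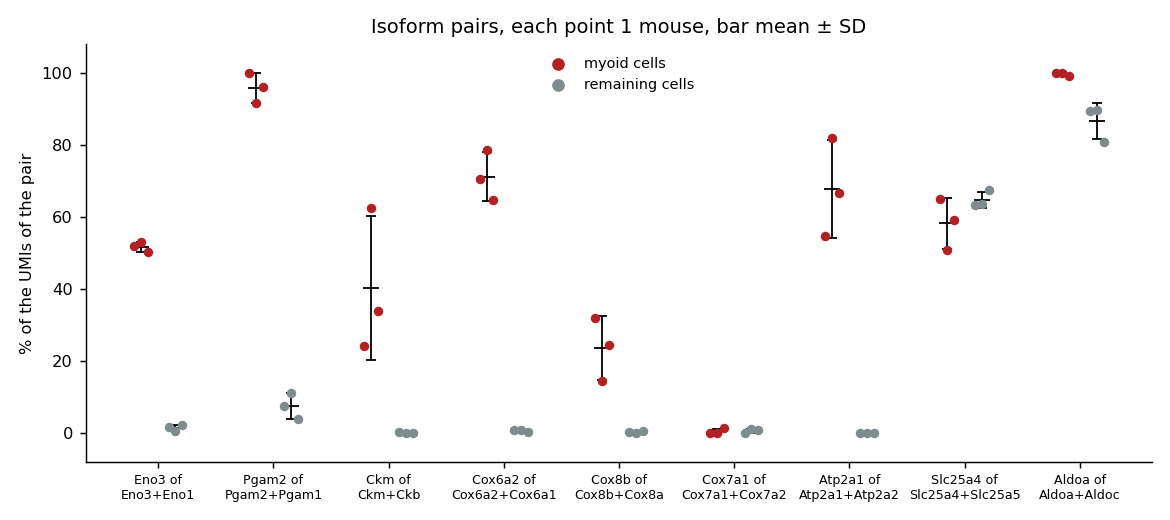
Share of a pair's UMIs from the muscle form (first name) for 9 pairs of isoforms, in percent, with each point 1 mouse and bars the mean ± SD, myoid cells in red and remaining cells in grey. The Eno3, Pgam2, Ckm, Cox6a2, Cox8b and Atp2a1 shares are higher in the members in every mouse, while Slc25a4 and Cox7a1 shares overlap.

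The genes of both fusion proteins were seen in most members. Tmem8c, the gene of the fusion protein Myomaker, stood at 1126, 1259 and 462 CPM in members against 5.86, 14.5 and 7.59, and Gm7325, the gene of Myomixer, at 865, 590.2 and 645 CPM against 5.86, 12.7 and 2.53. At least 1 UMI was seen in 46 of 60 members for Tmem8c and 38 of 60 for Gm7325. Chrna1, the alpha subunit of the muscle acetylcholine receptor, stood at 302, 472 and 308 CPM, 49 UMIs in members against 1 in remaining cells (ratio 1056, exact 95% interval 181 to 42534), and was seen in 26 of 60 members. Fusion itself was not measured, since a barcode holds what is left of a cell after dissociation.

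Adhesion genes of the Z-disc and the dystrophin complex were higher in part. Of 23 genes tested on the dystrophin and integrin list 13 were higher, 1 was lower and 9 did not pass, with a median log2 fold change of 2.14. Nexn, an actin-binding protein of the Z-disc, was higher, at 784, 787 and 967 CPM against 46.9, 30.9 and 109 (log2 fold change 3.75 ± 0.36, adjusted p = 3.77e-09), and Synpo2l, another Z-disc protein, was at 80.5, 275 and 336 against 0.976, 0 and 2.53 (log2 fold change 7.10 ± 0.63, adjusted p = 9.04e-10). Flnc, the filamin of muscle, was higher, at 60.3, 157 and 140.2 CPM against 3.90, 12.7 and 6.96 (log2 fold change 4.04 ± 0.59, adjusted p = 6.22e-06). The lower gene was Lims1, an adaptor of focal adhesions, with 2 UMIs in members and 288 in remaining cells (ratio 6.68, exact 95% interval 1.83 to 55.5, higher in remaining cells, with adjusted p = 0.015 and 0.12 without mouse 1), and 0 genes of the list were lower without mouse 1 and 2 without mouse 2. Integrin subunits Itga5, Itga9 and Itgb5 had no UMI in members, but did not pass the filter on low counts and were not tested.

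Cell surface adhesion molecules were lower in part. Of 27 cadherin and immunoglobulin family genes tested 9 were lower, 1 was higher and 17 did not pass. Of those tested 3 had no UMI in members. The list had a median log2 fold change of -1.52, or -1.40 with genes without a UMI in members at their bound. The 9 became 4 without mouse 1, 4 when 3 rule UMIs sufficed, 2 against granule lineage cells and 1 with cells thinned to 500 UMIs. Ctnna2, the alpha catenin of neurons, had 221 UMIs in remaining cells, 68.3, 58.1 and 75.3 CPM, and 0 in members, at least 3.42-fold lower (adjusted p = 0.00475, and 0.0608 without mouse 3). The higher gene was Ctnna1, the widely expressed alpha catenin, at 503, 236 and 182 CPM against 166, 139.8 and 94.9 (log2 fold change 1.26 ± 0.36, adjusted p = 0.014, and 0.339 without mouse 1), and 2 genes were higher without mouse 2. Plxnb2, a semaphorin receptor, had 1 UMI in members and 321 in remaining cells (ratio 14.9, exact 95% interval 2.66 to 590.3). Ncam1, which muscle and neurons both express, did not pass (log2 fold change -0.65, adjusted p = 0.294).

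Extracellular matrix genes were lower in part. Of 21 tested 12 were lower and 1 higher, and 5 had no UMI in members. In all, 22 of the 50 genes in the files had no UMI in members, and the median log2 fold change was -3.08, or -2.39 with such genes at their bound. Dcn, a proteoglycan of fibroblasts, was at 127, 178 and 97.4 CPM in remaining cells and 0 in members (at least 5.91-fold lower, adjusted p = 0.000309), and the collagen gene Col1a1 at 62.5, 99.8 and 139 CPM and 0 (at least 5.23-fold lower, adjusted p = 0.00207). The higher gene was Lgals1, a galectin abundant in muscle, at 1468, 1613 and 1542 CPM against 183, 216 and 166 (log2 fold change 3.08 ± 0.26, adjusted p = 1.88e-10). The 12 became 8 without mouse 1. Stromal marker cells, described below, held 362 of the 382 Dcn UMIs of remaining cells and 309 of the 338 of Col1a1. Granule lineage cells were at 50.4, 0 and 20.0 CPM of Dcn and 2.52, 4.52 and 27.2 CPM of Col1a1. Against granule lineage cells alone, 2 genes of the list were lower and 2 higher.

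Signalling genes differed by pathway, as the plot of all lists shows. The IGF list had 7 of 14 genes tested higher and 1 lower, with a median log2 fold change of 1.25, and summed to 16574, 12747 and 11282 CPM in members against 2277, 2336 and 2091. Igf2, the growth factor whose gene lies on chromosome 7, 142650766 to 142666816, minus strand, stood at 6537, 4328 and 4317 CPM against 266, 359 and 183 (log2 fold change 4.29 ± 0.30, adjusted p = 5.34e-12). Its neighbour H19, an imprinted noncoding RNA of muscle and embryonic tissues (chromosome 7, 142575529 to 142578143, minus strand), stood at 6839, 5390.1 and 4176 CPM against 84.9, 152 and 49.4 (log2 fold change 5.92 ± 0.36, adjusted p = 2.42e-13). With cells thinned to 500 UMIs, H19 was seen in 71.3% of members and 3.20% of remaining cells (without thinning 85.0% and 6.56%), and Igf2 in 88.8% and 6.39% (93.3% and 10.5%).

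The imprinted gene Dlk1, a relative of the Notch ligands, was higher, at 402, 157 and 210.2 CPM against 10.7, 14.5 and 9.49 (log2 fold change 4.63 ± 0.46, adjusted p = 7.06e-09). Grb10, an imprinted inhibitor of insulin receptor signalling, was higher, at 905, 551 and 673 CPM against 134, 78.1 and 72.1 (log2 fold change 2.98 ± 0.31, adjusted p = 2.28e-08), and Eif4ebp1, an inhibitor of translation under mTOR, was at 543, 354 and 182 against 37.1, 47.2 and 21.5 (log2 fold change 3.42 ± 0.41, adjusted p = 2.92e-07). The lower gene was Igfbpl1, an IGF binding protein-like gene, at 201, 39.3 and 56.1 CPM against 783, 764 and 761 (log2 fold change -2.83 ± 0.39, adjusted p = 2.51e-06), and without mouse 2 the list had 2 lower genes. Igf1 had no UMI in members, but did not pass the filter on low counts and was not tested.

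Sonic hedgehog (SHH) signalling drives CGNP proliferation. Of 5 genes of its list that were tested 4 were lower and none higher, and 1 of them had no UMI in members. The list had a median of -2.51 (-2.46 with bounds), and 8 of 17 in the files, among them the receptors Ptch1 and Smo and the effector Gli3, had no UMI in members. Ptch1 and Smo stood at 9.76, 7.26 and 3.80 and 19.5, 10.9 and 11.4 CPM in remaining cells, under the 20.5 CPM that 3 counts in members would give, so no difference was detectable. Ccnd1, cyclin D1 and a target of the pathway, was lower, at 60.3, 118 and 56.1 CPM against 497, 407 and 335 (log2 fold change -2.51 ± 0.41, adjusted p = 3.72e-05). Mycn was lower, at 80.5, 0 and 0 CPM against 176, 163 and 142 (log2 fold change -2.46 ± 0.65, adjusted p = 0.00728), with the UMIs of members in mouse 1 alone and adjusted p = 0.0764 without mouse 3. Sfrp1, a secreted Wnt inhibitor, had 3 UMIs in members and 632 in remaining cells (ratio 9.78, exact 95% interval 3.33 to 47.5). Without mouse 3, 2 genes of the list passed.

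Notch and TGF-beta genes differed both ways. Hes6, which promotes differentiation of neurons and muscle, was higher, at 664, 1219.7 and 897 CPM against 232, 196 and 137 (log2 fold change 2.30 ± 0.28, adjusted p = 3.94e-07), while Hes1, a Notch target, had 1 UMI in members and 395 in remaining cells (ratio 18.3, exact 95% interval 3.27 to 726, and adjusted p = 0.218 after thinning). The Notch list had 3 of 10 genes higher and 2 lower, with 1 lower without any 1 of the mice. Fst, follistatin, which binds myostatin and activins, was higher, at 1167, 1574 and 631 CPM against 19.5, 5.45 and 8.23 (log2 fold change 6.55 ± 0.39, adjusted p = 2.06e-13), and Tgfb3 stood at 60.3, 157 and 112 against 2.93, 1.82 and 3.80 (log2 fold change 5.01 ± 0.59, adjusted p = 2.04e-07). Id2, which holds E proteins away from MyoD and other partners, was lower, at 20.1, 78.7 and 70.1 CPM against 322, 319.5 and 568 (log2 fold change -2.82 ± 0.47, adjusted p = 5.18e-05), and its call ended when 3 rule UMIs sufficed (adjusted p = 0.831). In the TGF-beta list 3 of 12 genes were higher and 3 lower (1 without mouse 3). The receptor kinase Kit had 193 UMIs in remaining cells and 0 in members (at least 2.99-fold lower, adjusted p = 0.0174, and 0.0562 when 3 rule UMIs sufficed), and 2 of 7 growth factor receptor genes were lower (0 without mouse 3). Both lower genes had no UMI in members.

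**Figure D3:**
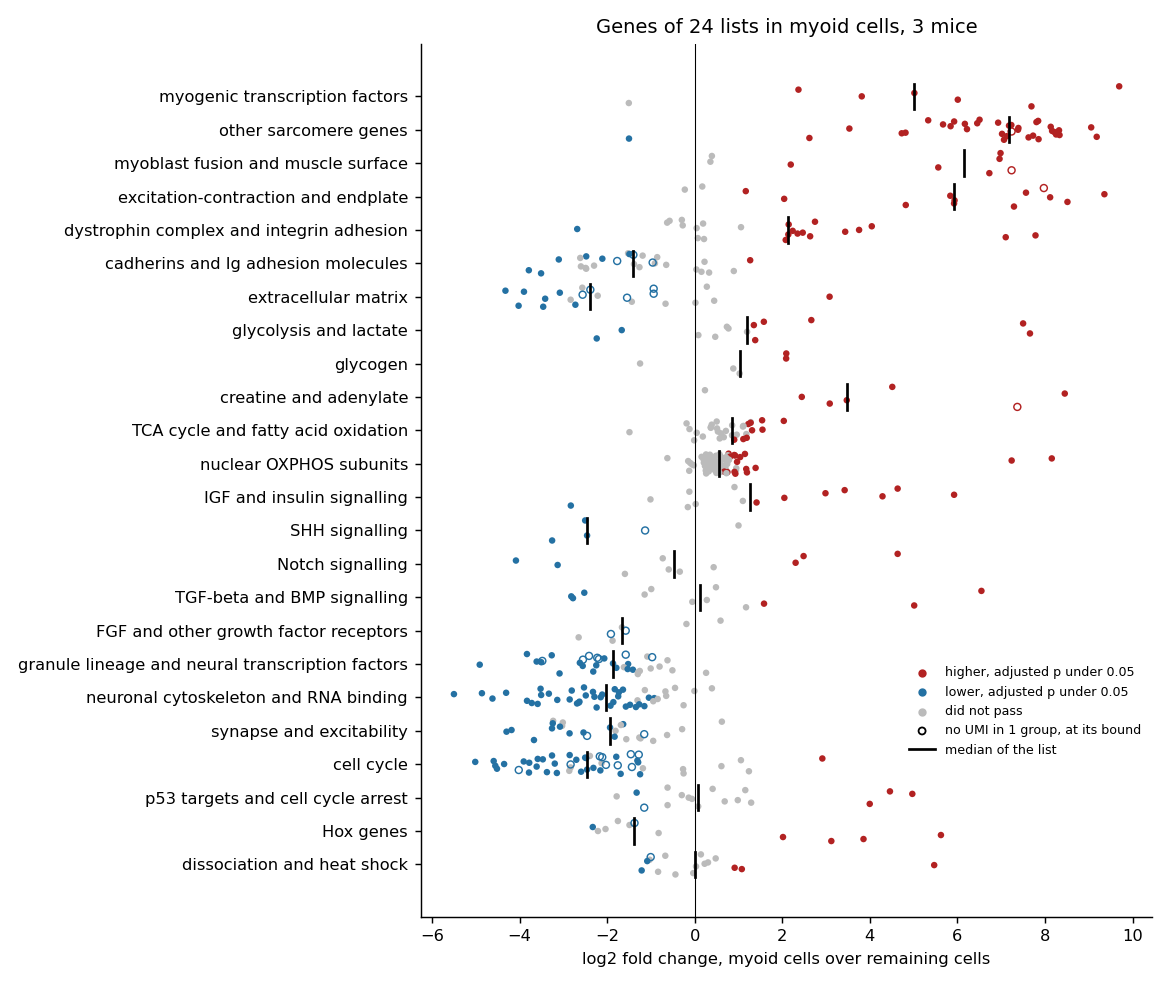
Log2 fold change of each tested gene in 24 lists, myoid over remaining cells, with red and blue marking adjusted p under 0.05 upward and downward, grey not past it, open points genes without a UMI in 1 group drawn at their bound, and black bars the list medians. Muscle and creatine lists lie to the right, the OXPHOS list slightly to the right with a median of 0.56, and the neural, cell cycle and SHH lists to the left.

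The neural program of the granule lineage was lower in members. Of 33 neural transcription factors tested 23 were lower and none higher, and 7 of the 33 had no UMI in members. The list had a median log2 fold change of -2.25 (-1.87 with bounds). Neurod1, which drives granule neuron differentiation, was lower, at 161, 0 and 70.1 CPM against 879, 1356 and 1159 (log2 fold change -3.61 ± 0.42, adjusted p = 1.32e-07). Zic1, which marks cerebellar progenitors and granule neurons, was lower, at 302, 118 and 112 CPM against 978, 889.6 and 939 (log2 fold change -2.32 ± 0.34, adjusted p = 6.64e-06), with mouse 1 the highest. Stromal marker cells, described below, held Zic1 too, at 741, 669 and 480 CPM. Myt1l, which represses genes of other lineages in neurons, had 723 UMIs in remaining cells, 157, 167 and 297 CPM, and 0 in members (at least 11.2-fold lower, adjusted p = 2.88e-05). Mab21l2, Ebf3 and Insm1 were also at 0 in members, which puts them at least 5.88-, 5.34- and 4.69-fold lower. The call of Ebf3 ended when 3 rule UMIs sufficed (adjusted p = 0.0692) and that of Insm1 with cells thinned to 500 UMIs (adjusted p = 0.0669). Tcf4, an E protein that pairs with tissue-specific factors in many cells, did not pass (log2 fold change -0.51, adjusted p = 0.279). It stood at 1126, 315 and 617 CPM in members against 1071, 844 and 1284. It passed downward under some settings, with adjusted p = 0.0397 without mouse 1, 0.0178 with cells thinned to 500 UMIs and 0.0471 with upper limits on UMIs and genes.

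Genes of the neuronal cytoskeleton and RNA binding followed, with 36 of 46 lower, none higher and a median of -2.02. Gap43, a growth cone protein, was lower, at 20.1, 78.7 and 28.0 CPM against 909.7, 1202 and 1065 (log2 fold change -4.86 ± 0.43, adjusted p = 9.04e-10). Gng3, a neuronal G protein subunit, had 1 UMI in members and 1111 in remaining cells (ratio 51.6, exact 95% interval 9.24 to 2039, and adjusted p = 0.103 when 3 rule UMIs sufficed), and the RNA-binding Elavl4 2 and 1055 (ratio 24.5, exact 95% interval 6.76 to 202). The neurofilament gene Nefl had 1 UMI in members against 645 (ratio 29.9, exact 95% interval 5.35 to 1184), and its direction turned when 3 rule UMIs sufficed (log2 fold change 0.22, adjusted p = 0.874). Of genes that did not pass, Tuba1b was at a log2 fold change of -0.26 (adjusted p = 0.591) and Celf2, a splicing factor of brain and muscle, at 0.39 (adjusted p = 0.432). When 3 rule UMIs sufficed, 5 cells with 26433 UMIs joined the 60 members and 16 genes of the list were lower.

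Of 25 synapse and excitability genes tested 13 were lower and none higher, and 2 had no UMI in members. The 13 lower genes became 11, 18 and 8 without mouse 1, 2 or 3, and 5 when 3 rule UMIs sufficed. Slc17a6, the vesicular glutamate transporter, had 356 UMIs in remaining cells, 91.8, 85.3 and 136 CPM, and 0 in members (at least 5.51-fold lower, adjusted p = 0.000847).

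Few members met a rule for granule lineage cells. The granule lineage rule, at least 2 UMIs of Barhl1, Neurod1, Cntn2, Mfap4, Nhlh1 and Sfrp1 with 2 of them seen, was met by 3 of 60 members, 2 in mouse 1 and 1 in mouse 3, and by 32.1%, 34.6% and 37.0% of the remaining cells. Whether those barcodes held more than 1 cell was not tested, and without these 3, an alternative chosen after seeing the data, 454 genes were higher and 728 lower over all genes tested. Thinned to 500 UMIs, Neurod1 was seen in 1.39% of members, 29.7% of remaining cells, 50.0% of granule lineage cells, which were chosen partly by this gene, and 4.44% of stromal marker cells, and Zic1 in 7.98%, 35.5%, 39.7% and 24.7% (means of 3 mice). Without thinning Neurod1 was seen in 13.5% of members and 7.78% of stromal marker cells, which should lack it, and Zic1 in 23.7% and 57.9%. The 13 Neurod1 UMIs of members lay in 9 cells, 4 of them in 1 cell of mouse 1 that also held 7 UMIs of Zic1, and whether they came from the cells themselves was not tested.

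**Figure D4:**
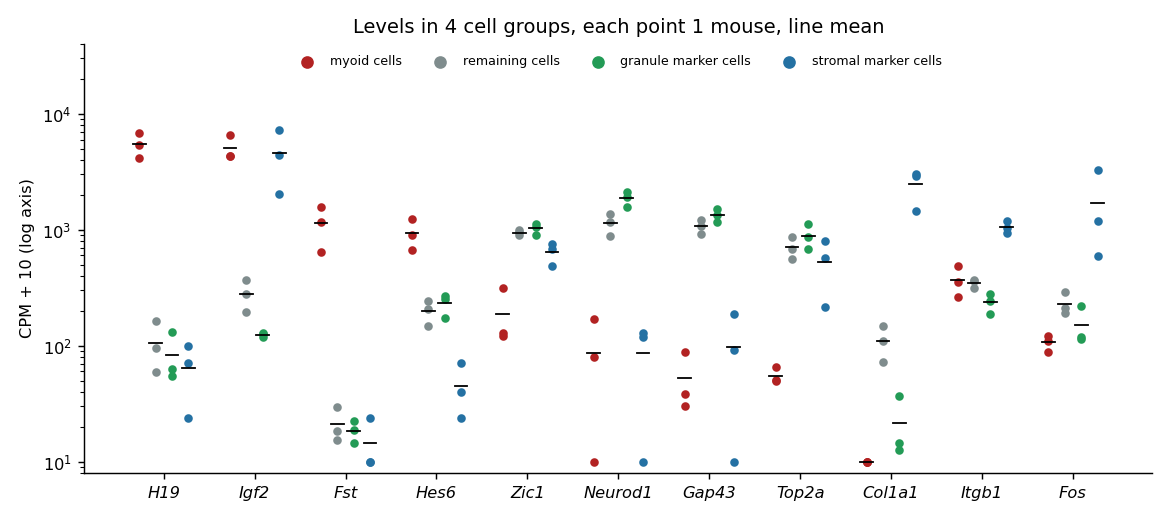
Level of 11 genes in CPM plus 10, on a logarithmic axis, in myoid, remaining, granule marker and stromal marker cells, with each point 1 mouse and each line the mean, and points at 10 standing for a level of 0. H19, Fst and Hes6 are highest in myoid cells, Igf2 is high in both myoid and stromal marker cells, and Neurod1 and Gap43 are low in both.

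Most cell cycle genes were lower. Of 48 tested 37 were lower, 1 was higher and 10 did not pass. Of those tested 9 had no UMI in members. The list had a median of -3.01 (-2.47 with bounds). Nusap1, of the mitotic spindle, had 1050 UMIs in remaining cells, 413, 356 and 273 CPM, and 0 in members (at least 16.2-fold lower, adjusted p = 3.22e-07). The cyclins Ccna2 and Ccnb2 were at 0 in members, at least 4.50- and 4.33-fold lower. Top2a was seen in 6 of 60 members and Mki67 in 3, and after thinning Top2a was seen in 1.39% of members and 16.0% of remaining cells. The higher gene was Ccnd3, the cyclin D of differentiating muscle, at 483, 629.5 and 448 CPM against 73.2, 69.0 and 65.2 (log2 fold change 2.91 ± 0.29, adjusted p = 9.31e-09), a call that ended with cells thinned to 500 UMIs (1.58, adjusted p = 0.108).

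Outside the lists, some of the genes with the largest changes are named here, and no gene set was tested among them. Tceal7, an X-linked gene of the transcription elongation factor A-like family (chromosome X, 136214779 to 136226100, plus strand), stood at 1911, 2282 and 2355 CPM in members against 6.83, 0 and 1.27 (log2 fold change 9.50 ± 0.44, adjusted p = 1.01e-15), the largest log2 fold change among named genes outside the lists. The cofactor Vgll2 had 37 UMIs against 2 (ratio 399, exact 95% interval 103 to 3413), the muscle deaminase Apobec2 42 against 2 (ratio 452, exact 95% interval 118 to 3858) and the kinase Srpk3 38 against 3 (ratio 273, exact 95% interval 86.6 to 1382). The secreted chitinase-like Chi3l1 was higher, at 402, 629.5 and 224 CPM against 2.93, 1.82 and 0.633 (log2 fold change 7.73 ± 0.54, adjusted p = 5.84e-12). Cck, the gene of cholecystokinin, was higher, at 121, 511 and 168 CPM against 1.95, 1.82 and 3.16 (log2 fold change 6.42 ± 0.59, adjusted p = 1.51e-09), and Ddc, the decarboxylase that makes dopamine and serotonin, was at 241, 157 and 168 against 4.88, 9.08 and 3.16 (log2 fold change 5.28 ± 0.53, adjusted p = 9.31e-09). Sox9, a factor of glia and progenitors, had 349 UMIs in remaining cells and 0 in members (at least 5.40-fold lower, adjusted p = 0.00085).

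The small heat shock protein Hspb1, which binds actin in muscle, was higher, at 603, 748 and 434 CPM against 5.86, 23.6 and 13.3 (log2 fold change 5.47 ± 0.39, adjusted p = 9.27e-12), but the dissociation and heat shock list as a whole had a median log2 fold change near 0, with 3 of 16 genes higher and 3 lower. Those counts were 1 and 0 without mouse 1, and 1 and 1 without mouse 2.

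Members differed among themselves along the same axis that chose them. Within each mouse they were split at the median share of UMIs from the 5 rule genes into a low-share group (12, 8 and 11 cells) and a high-share group (12, 7 and 10 cells), which is a range and not a type and carries no test. The rule genes are muscle genes, so the direction of other muscle genes follows in part from the split. Myog was at 7051, 6744 and 8584 CPM in the low-share cells of mice 1, 2 and 3 and 1019, 1648 and 708 CPM in the high-share group. The cell cycle inhibitor Cdkn1c was at 18561, 18779.8 and 21542 and 5192, 3739 and 7058 CPM, and Gm7325 at 1607, 1245 and 1249.8 and 394, 190.1 and 195 CPM. All 3 genes were higher in the group with the smaller share of rule UMIs in 3 of 3 mice. The other fusion gene, Tmem8c, had no common direction, at 778, 1660 and 658 CPM in the low-share and 1347, 1014 and 317 CPM in the high-share group.

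Several energy genes went the other way. Ckm was at 0, 0 and 32.9 CPM in the low-share group and 427, 634 and 855 in the high-share group, while Ckb, which was higher in the low-share group, was at 1452, 519 and 1710.2 and 427, 63.4 and 439.6. Eno3 was at 51.8, 104 and 65.8 and 2300.4, 1648 and 1954 CPM and Cox6a2 at 259, 208 and 132 and 2892, 3105 and 2271. The muscle forms Ckm, Eno3 and Cox6a2 were each higher in the high-share group in 3 of 3 mice, which follows in part from a split on muscle genes. The glycolysis list summed to 2385, 2075 and 3256 CPM in the low-share group and 7919.8, 7352 and 8450.1 in the high-share group, and the OXPHOS list to 39039.8, 47728 and 35125 and 55373, 50574 and 62033. Tceal7 was at 51.8, 0 and 0 CPM in the low-share and 3089, 3676 and 4103 in the high-share group and H19 at 2385, 3528 and 888 and 9662, 6528 and 6618, but Igf2 was at 6169.6, 4254 and 4571 and 6769.6, 4373 and 4127. Depth moved with the split, with median UMIs of 1286.5, 1088.5 and 2881 in the low-share group and 2382.5, 1111 and 4387.5 in the high-share group, and its part in these values was not tested.

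**Figure D5:**
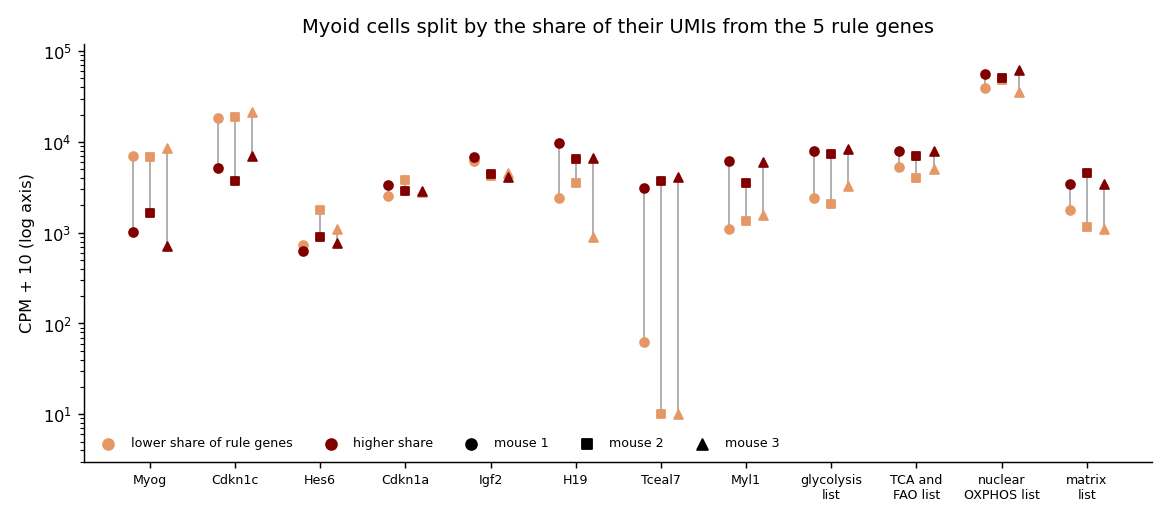
Level in the low-share and high-share groups of the myoid cells of each mouse, in CPM plus 10 on a logarithmic axis, for 8 genes and 4 lists, with 1 line per mouse joining its groups. Myog and Cdkn1c lie higher in the low-share group, Igf2 and Cdkn1a show no common direction, and Tceal7 and the energy lists lie higher in the high-share group.

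Stromal cells, which like muscle are not neural, were taken as a second comparison. They were 73 remaining cells (30, 13 and 30) with at least 3 UMIs of Dcn, Col3a1, Lum, Rgs5, Vtn and Pdgfrb and at least 2 of these genes seen, and no member met that rule. Of 860 genes tested 140 (16.3%) were higher and 178 (20.7%) lower in myoid cells, with a median of 0.11. This fit shares the members with the first, so the values stand side by side and are not a second sample of them.

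Igf2 was high in both groups, at 6537, 4328 and 4317 CPM in members and 4384, 7303 and 2015 in stromal cells (log2 fold change 0.04 ± 0.36, adjusted p = 0.951), and its direction turned without mouse 1 or mouse 3 (-0.193 and -0.23). H19 was not, at 88.9, 60.9 and 13.7 CPM in stromal cells (log2 fold change 6.75 ± 0.50, adjusted p = 4.37e-13). Eno3 had 1 UMI in stromal cells against 180 (ratio 151, exact 95% interval 26.8 to 6009), Eno1 was higher in members (log2 fold change 2.27 ± 0.40, adjusted p = 1.11e-05), and so were Aldoa (log2 fold change 1.86 ± 0.32, adjusted p = 1.14e-05) and Ndufc2 (log2 fold change 1.72 ± 0.32, adjusted p = 2.36e-05). Fst had 1 UMI in stromal cells (ratio 120.2, exact 95% interval 21.2 to 4781) and Hes6 3 (ratio 35.9, exact 95% interval 12.0 to 176), while Hes1 was the reverse, with 1 UMI in members and 80 in stromal cells (ratio 95.2, exact 95% interval 16.6 to 3805).

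Matrix genes, among them 3 of the genes that chose the stromal cells (Dcn, Col3a1 and Lum), were lower in members, which follows in part from that choice, as other matrix genes are made by the same cells. Genes without a UMI in members passed the filter on low counts through the stromal cells alone. With the 3 rule genes left out of the test, the 10 other matrix genes tested were past the threshold downward, and the list, these 3 included, summed to 2796, 3226 and 2425 CPM in members and 28380.1, 40469.8 and 32817 CPM in stromal cells. Col1a1 had 0 UMIs in members and 309 in stromal cells (at least 123-fold lower). The integrin Itgb1 was at 342, 472 and 252 CPM against 918, 1035 and 1179 (log2 fold change -1.83 ± 0.33, adjusted p = 2.31e-05) and the tetraspanin Cd81 at 342, 590.2 and 168 against 1896, 1217 and 1069 (log2 fold change -2.26 ± 0.36, adjusted p = 3.4e-06). Of the IGF binding proteins Igfbp2 (log2 fold change -4.72 ± 0.48, adjusted p = 6.59e-10) and Igfbp7 (log2 fold change -3.31 ± 0.46, adjusted p = 2.4e-07) were lower and Igfbp5 (log2 fold change 2.01 ± 0.45, adjusted p = 0.000385) was higher in members.

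Zic1 was lower in members than in stromal cells, at 302, 118 and 112 CPM against 741, 669 and 479.8 (log2 fold change -1.92 ± 0.44, adjusted p = 0.000487). Without thinning Zic1 was seen in 57.9% of stromal cells and 55.4% of remaining cells (means of 3 mice), so it is not particular to neural cells here. The immediate early genes Fos and Jun, which dissociation can raise, were lower in members too (log2 fold change -3.99 ± 0.50, adjusted p = 4.55e-08 and log2 fold change -2.55 ± 0.44, adjusted p = 9.54e-06). Ptn, a growth factor of meningeal and glial cells, was at 141, 315 and 84.1 CPM in members and 9332, 11989 and 8773 in stromal cells (log2 fold change -6.18 ± 0.46, adjusted p = 4.37e-13). Tceal7 and Car3, a carbonic anhydrase of muscle and fat, had no UMI in stromal cells, where 3 counts would give 24.4 CPM, and were at least 89.9- and 29.1-fold higher in members.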

How the data were processed

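Drop-seq libraries of 3 P7 mice were analysed. The authors counted 3′ UMIs per gene and cell barcode, and the deposited values are whole counts without normalization, with 1247761, 711290 and 1734000 UMIs in 1401, 936 and 1144 barcodes of mice 1, 2 and 3. The submitters' processing notes name STAR and mm10, and the version, the annotation used for counting and whether strand was used are not given in the sources used here. Positions were taken from GENCODE M21 on GRCm38 and promoter sequences from RefSeq on GRCm38.p6, and no sequence was read for genes without 1 entry there.

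Cells were kept and chosen by the rule given above, and no barcode was shared between libraries. No doublet caller was run. Upper limits on UMIs and genes, set 4 SD above the median of each mouse with at least 200 genes per cell, were an alternative. Counts were summed per mouse and cell group, since cells are not replicates, and tested with edgeR (4.0.16, R 4.3.3, TMM, filterByExpr) by its quasi-likelihood test, and p-values were adjusted over every tested gene by the Benjamini-Hochberg method. The 5 rule genes were left out of the tests, as were the 6 stromal rule genes against stromal cells. The code was tested on simulated data. Ratios carry exact Clopper-Pearson 95% intervals on pooled UMIs, and a fold against a group at 0 was computed from 3 counts over that group. Cells were thinned to 500 UMIs without replacement for shares of cells with a gene. Sums of both groups came from the same 3 mice, so the mouse numbers pair them. Deviations of the paired sums correlated across genes at r = 0.104, 0.0812 and 0.17, and the fit with the mouse as a block was an alternative beside DESeq2 (1.42.0), RLE factors, total UMIs, other rule limits, cell filters, thinning and leaving out each mouse.

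The members and the gene lists were chosen with earlier results of these data known. From each list the text names up to 4 genes past the threshold in the same direction in 3 of 3 mice with the largest change, up to 3 that did not pass with the most UMIs, and isoform pairs. Outside the lists it names genes among the 15 with the largest and the 15 with the smallest log2 fold change with at least 30 UMIs. Ldhb, Lgals1, Lims1, Ctnna1, Grb10, Igfbpl1, Hes6, Zic1, Ccnd3, Top2a, Mki67, Tpm3, Ptch1, Smo, Igfbp5, the genes named as having no UMI, the genes with printed sequences and those of the split of the members were chosen after their values were seen. Whether the mice shared a litter or a preparation day is not given in the labels.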

Additional observations from a re-analysis of the deposited data

Results flagged for a closer look

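A signal of the 5 muscle genes also appeared in barcodes outside every comparison. Of the barcodes under 500 UMIs, 6 met the rule of at least 5 UMIs with 2 genes seen, 2 in each mouse. Their rule UMIs were 14 and 8 in mouse 1, 9 and 9 in mouse 2 and 14 and 14 in mouse 3, out of 320, 463, 392, 287, 469 and 454 UMIs. Mitochondrial UMIs made up 19.4% of the first and 1.02% to 3.84% of the other 5.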

How the results depend on the processing

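Across the alternatives, values of named genes kept direction and side of the threshold 1297 times against remaining cells and 287 times against stromal cells, while against remaining cells 33 calls were lost with the same direction and 13 gained, beside those of Nefl and Slc25a5, which were lost with the direction turned. With every cell thinned to 500 UMIs, 129 genes were higher and 316 lower than in remaining cells, and the median of all genes shifted by -0.44. Of the calls 29.0% were then upward, against 40.1%. Leaving out 1 mouse gave 325 to 407 higher and 407 to 628 lower genes, the lowest counts of both without mouse 3. Against stromal cells 285 were higher and 409 lower with no filter on low counts, 299 were lower with DESeq2, and 155 to 275 were lower and 108 to 185 higher with 1 mouse left out. Total UMIs raised the median against stromal cells by 0.17, with 51.8% of calls upward against 44.0%. The share of members was 2.22% with at least 10 rule UMIs and 3.98% among cells of at least 1000 UMIs. The fit with the mouse as replicate block gave 514 higher and 735 lower genes (164 and 196 against stromal cells), kept 460 and 679 of the calls, and changed no call of a named gene but those of Cox6a1 and Cox8a. Cox6a1 also passed with DESeq2, no filter, total UMIs, RLE factors and thinning.

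Directions turned for 10 values, none past the threshold under that setting. Thinning gave Ldha -0.23, Pkm -0.13 and Slc25a5 -0.17. Ckb was -0.0358 without mouse 1 and 0.31 without mouse 2, Atp2a2 0.0485 against granule lineage cells, and Nefl 0.22 when 3 rule UMIs sufficed. Against stromal cells Igf2 was -0.0647 when 3 rule UMIs sufficed, -0.0502 with upper limits on UMIs and genes, and -0.23 to 0.65 with 1 mouse left out. The cause of these changes was not tested. Depth limited the genes without a UMI in members, whose level may be anything up to 20.5 CPM.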
